A study of Homo sapiens with 6 samples.

Results

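The interstitial matrix is the collagen and glycoprotein scaffold that lies between cells, and 41 genes for its proteins and for the enzymes that fold and cross-link collagen were followed here in 6 xenograft tumors. The members were chosen by name. Each was read from a probe set that names no other gene, and where a gene had several, from that with the highest mean over the 6 arrays. All 41 were found among 18132 genes with such a probe set, and 33 of them were among the 13694 genes bright enough to test. The tumors were grown in nude mice from CRL-5889, an established human lung squamous carcinoma line, and harvested 4 weeks after implantation. The implanted cells had been transfected either with the fusion TRA2B-DNAH5 (3 fusion tumors) or with the vector (3 vector tumors). The labels name the tumors biological replicates and do not say which mouse bore each, how many clones each transfection gave, or which parts of TRA2B and DNAH5 the construct holds. The question is which matrix transcripts differ in tumors whose cells carry the fusion. An effect of the fusion and a chance difference between the 2 transfected populations cannot be told apart.

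Values are log2 levels of probe sets of an array with human probes, so a difference of 1 is a doubling, and levels of different genes cannot be ranked because probe sets differ in brightness. The host's connective tissue is mouse, and how much of its RNA these probes pick up was not tested. In whole tumors, fewer cells of a type and less RNA per cell cannot be told apart. A gene was tested if its mean over the 6 tumors reached 4.94, the 30th percentile of all probe sets. The arrays had medians from 6.27 to 6.39, and the first principal component of the tested genes set vector tumor 1 (score 30.1) apart from the rest (-8.58 to -3.68). The genes joined in the fusion had log2 fold changes of 0.039 (TRA2B, 95% confidence interval -0.18 to 0.26) and -0.0043 (DNAH5, -0.48 to 0.48), which does not check the construct. Of 11 squamous and epithelial markers, 8 had a probe set of their own. EPCAM, CDH1 and DSG3, which encode epithelial adhesion proteins, lay below the level for testing. The basal keratin genes KRT5 and KRT14 ran from 4.90 to 5.90. KRT8, KRT18 and SOX2 were tested too. The groups overlapped for KRT5, KRT14, KRT8 and KRT18, with log2 fold changes of -0.13, 0.016, 0.015 and -0.021. SOX2, a transcription factor often amplified in squamous lung carcinoma, was 8.70, 8.92 and 8.85 in fusion tumors and 9.24, 9.62 and 10.10 in vector tumors. Every fusion tumor lay below every vector tumor, with a log2 fold change of -0.83 (limma unadjusted p = 0.0024, adjusted p = 0.369). The part of this difference in the values of the members was not tested.

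Fibrillar collagens are made as long chains, 3 of which wind into a helix inside the secretory pathway. Prolyl and lysyl hydroxylases (the P4HA and PLOD genes) modify the chains there, and the chaperone SERPINH1 holds the helix until export. Outside the cell, lysyl oxidases (LOX and the LOXL genes) oxidise lysines so that fibrils become covalently cross-linked. Fibrillins build the microfibrils that carry elastin, and glycoproteins and proteoglycans tie fibrils to each other and to cells. Carcinoma cells make part of this matrix, but in most tumors fibroblasts are the main source.

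No member passed the threshold of adjusted p 0.05 by limma, where 10 of all 13694 genes did (0.073%; 0.0584% higher and 0.0146% lower in fusion tumors). At an unadjusted p below 0.05 there were 4 of 33 members, 12.1% against 5.89% of all genes. COL1A1, COL1A2 and LOXL2 were higher in fusion tumors, where 3.16% of all genes were, and FBN1 was lower, where 2.73% were. The same 4 were the tested members whose groups did not overlap, again 12.1%, against 11.7% of all genes (5.94% higher and 5.74% lower), so this share was near the background. A log2 fold change of 0.5 or more was seen for COL1A1 (0.898% of all genes) and one of -0.5 or less for COL12A1 and FBN2 (0.453%), with FBN1 just short of it at -0.498. Which members had an unadjusted p below 0.05 depended on scaling, though none of these 4 changed sign. After median centring of the arrays COL1A2 and LOXL2 no longer had one while FBN2 and COL12A1 did, which gave 1 higher and 3 lower. After quantile normalization LOXL2 no longer had one and FBN2 and COL12A1 did, which gave 2 higher and 3 lower. Over all genes, 786 of 13694 had one after median centring and 826 of 13697 after quantile normalization. In the deposited values 22 of 33 members lay above 0, where 50.8% of all genes did, and the median log2 fold change was 0.049, against 0.0020 over all genes. The count above 0 was 18 after median centring, 19 after quantile normalization and 18 without vector tumor 1. In these runs the median over all genes was -0.027, -0.017 and -0.0027. That of the members was 0.020, 0.040 and 0.020. Most differences were small: 25 of 33 members lay within 0.25 of 0, and for 19 the 95% confidence interval lay within 0.5 of 0 on either side.

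**Figure D1:**
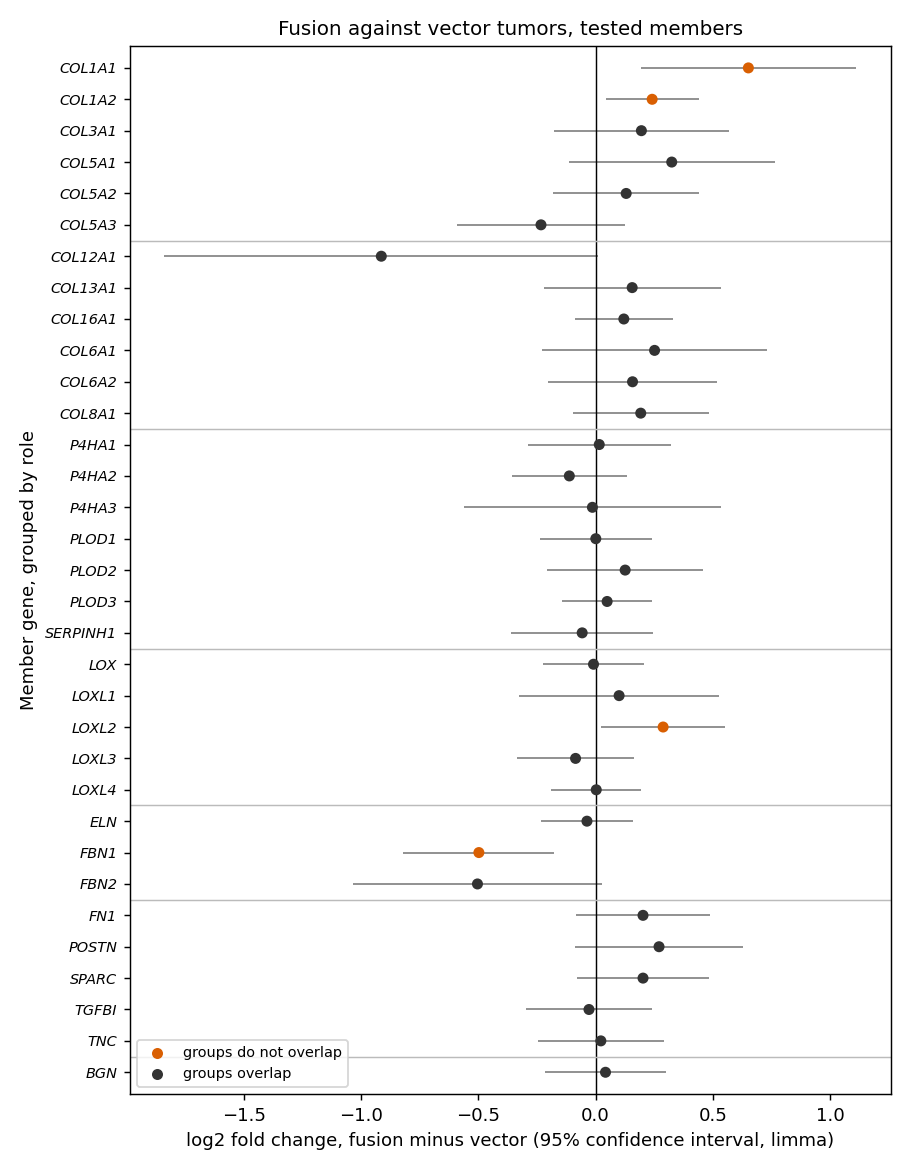
Log2 fold change (fusion minus vector, horizontal axis) of the 33 tested members, with 95% confidence intervals from limma, grouped by role on the vertical axis; orange points mark members whose groups did not overlap. The points run from -0.91 for COL12A1 to 0.65 for COL1A1, and 25 lie within 0.25 of 0.

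Among the fibrillar collagens, COL1A1 and COL1A2, which encode the chains of type I collagen, had higher values in every fusion tumor than in any vector tumor. COL1A1 stood at 8.05, 7.88 and 7.89 in fusion tumors 1 to 3 and at 7.03, 7.81 and 7.03 in vector tumors 1 to 3. Vector tumor 2 thus lay just under the fusion tumors, and vector tumors 1 and 3 lay far below. The means were 7.94 ± 0.098 and 7.29 ± 0.45 (SD, n = 3 each), a 1.57-fold difference. On the log2 scale it was 0.65 with an SE of 0.20 (limma adjusted p = 0.593; exact permutation p = 0.1, the smallest that 3 against 3 tumors allow). Without vector tumor 2 the log2 fold change of COL1A1 was 0.91. It was 0.39 with array weights, 0.18 with the mean of probe sets and 0.085 with plain _at sets, and over all alternatives its adjusted p ran from 0.125 to 1.00.

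COL1A2 was dimmer, at 5.52, 5.47 and 5.39 in fusion tumors and 5.25, 5.24 and 5.17 in vector tumors. Its groups were separate by a narrow margin, and its spread was small in both. The difference was 1.18-fold, or 0.24 on the log2 scale with an SE of 0.087 (limma adjusted p = 0.708). Its probe set is of the _x_at type, which can hold probes that match other transcripts, and the 5 other COL1A2 probe sets lay below the level for testing.

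Other fibrillar chains overlapped between the groups. COL3A1, the type III chain that forms fibrils together with type I, ran from 5.93 to 6.48 in fusion and from 5.80 to 6.20 in vector tumors. The type V chains regulate fibril diameter. COL5A1 was 5.98, 6.47 and 6.02 in fusion tumors and 5.44, 5.97 and 6.08 in vector tumors (log2 fold change 0.32, 95% confidence interval -0.12 to 0.76), with vector tumor 1 the lowest. COL5A2 was bright in all tumors, from 12.67 to 12.81 in fusion tumors and at 12.30, 12.71 and 12.79 in vector tumors, where only vector tumor 1 lay apart. Its log2 fold change of 0.13 became -0.021 without that tumor. COL5A3 went the other way in vector tumor 1, at 6.71 there and at most 6.26 in the other tumors. COL11A1, a chain of cartilage fibrils, had a mean of 4.81 and was not tested.

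COL12A1 encodes a long collagen that lies on the surface of type I fibrils, and it had the widest spread of all tested members. Its values were 5.35, 6.80 and 5.42 in fusion tumors and 7.25, 6.91 and 6.15 in vector tumors. Fusion tumor 2 lay among the vector tumors, while fusion tumors 1 and 3 lay below all of them. The means were 5.86 ± 0.82 and 6.77 ± 0.56 (SD, n = 3 each), a difference of -0.91 with an SE of 0.40 (limma adjusted p = 0.855, exact permutation p = 0.2). Without fusion tumor 2 the log2 fold change was -1.39 (adjusted p = 0.360), and in the other runs with a tumor left out it lay between -1.22 and -0.66. The muscle actin gene ACTA1, from the list of skeletal muscle markers, stood at 6.92, 8.90 and 7.71 in fusion tumors. It was 8.96, 8.52 and 7.62 in vector tumors, so fusion tumor 1 was lowest here too. TNNT3 was also lowest in fusion tumor 1 (5.97), while CKM was lowest in vector tumor 3 (5.64) and MB in vector tumor 2 (5.49). Of 6 muscle markers 4 were tested, MYH1 and MYH2 were too dim, and the mean level of the list ran from 5.51 to 6.07 in fusion and from 5.66 to 6.23 in vector tumors. The part of muscle RNA in the COL12A1 values was not tested.

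The remaining tested non-fibrillar collagens overlapped between the groups on the probe sets used. COL6A1 and COL6A2 encode chains of the beaded filaments of type VI collagen and shared a low value in vector tumor 1. COL6A1 was 7.29 in that tumor and from 8.01 to 8.18 in the others. COL6A2 was 7.61 there, between 7.95 and 8.13 in the other vector tumors, and between 7.87 and 8.29 in the fusion group. With that tumor the log2 fold changes were 0.25 and 0.16, and without it -0.023 and 0.015. COL8A1, a short-chain collagen of vessel walls, was 6.82 in fusion tumor 1 and 6.34 to 6.50 in the other tumors. COL13A1, a collagen that spans the cell membrane, ran from 5.23 to 5.64 in fusion and 5.04 to 5.62 in vector tumors. On a second COL13A1 set bright enough to test, with a difference of 0.30, every fusion tumor lay above every vector tumor. COL16A1, which associates with fibrils, ran from 5.63 to 5.76 in fusion and 5.47 to 5.64 in vector tumors. COL6A3 and COL14A1 had means of 4.88 and 4.26 and were not tested.

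Of the fibrillin genes, FBN1 had separate groups, while those of FBN2 overlapped. FBN1 encodes the main fibrillin of adult microfibrils, and its values were 8.03, 8.10 and 7.77 in fusion tumors against 8.24, 8.70 and 8.45 in vector tumors. Every fusion tumor lay below every vector tumor. The means were 7.97 ± 0.17 and 8.46 ± 0.23 (SD, n = 3 each), a difference of -0.50 with an SE of 0.14 (limma unadjusted p = 0.00706, adjusted p = 0.514). FBN1 passed under a single alternative, limma with array weights, where the log2 fold change was -0.71 (adjusted p = 0.0235) and 140 genes passed in all. Over all alternatives its adjusted p ran from 0.0235 to 1.00.

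FBN2, the fibrillin gene used most in development, was 7.84, 8.35 and 8.11 in fusion tumors and 8.59, 9.10 and 8.13 in vector tumors. Vector tumor 3 lay within the fusion range, and vector tumors 1 and 2 lay above it. The difference was -0.50 with an SE of 0.23 (limma adjusted p = 0.882), and without vector tumor 2 it was -0.26. ELN, the elastin gene, stayed within 6.89 to 7.01 over all 6 tumors (log2 fold change -0.037, 95% confidence interval -0.23 to 0.16).

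FBN2 and COL12A1 were the members whose values were at least 0.5 lower in fusion tumors, and their promoters are shown for that reason. Each run is the 250 bases before the transcription start in RefSeq (GRCh38.p14), 5′ to 3′ on the gene's minus strand, at chr5:128538246-128538495 and chr6:75206054-75206303. Capitals mark matches, on either strand, to 4 short motifs of promoters. The GC box, which SP1 binds, was searched for as GGGCGG. The box bound by the factor NF-Y was searched for as CCAAT, the letters it is named by. The AP-1 site was taken in its common form, TGACTCA, and the box near many start sites that the TATA-binding protein reads as TATAAA.
FBN2: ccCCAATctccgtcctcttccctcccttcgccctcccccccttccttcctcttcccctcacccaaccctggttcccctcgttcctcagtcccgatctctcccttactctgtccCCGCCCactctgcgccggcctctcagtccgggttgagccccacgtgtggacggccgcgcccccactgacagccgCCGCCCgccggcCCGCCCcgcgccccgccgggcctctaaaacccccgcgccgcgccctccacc
COL12A1: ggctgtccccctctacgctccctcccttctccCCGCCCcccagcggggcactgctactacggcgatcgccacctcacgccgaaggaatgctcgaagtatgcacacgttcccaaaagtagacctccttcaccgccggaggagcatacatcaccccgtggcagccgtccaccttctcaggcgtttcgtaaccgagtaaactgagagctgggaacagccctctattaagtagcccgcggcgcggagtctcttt
The FBN2 run holds 1 CCAAT box and 3 GC boxes, and the COL12A1 run holds 1 GC box, with no overlap between matches. Neither window holds a match to the TATA box or the AP-1 site. Over 35116 promoter windows of this length, 32% hold the CCAAT box, 42.6% the GC box, 10.7% the TATA box and 4.2% the AP-1 site. In the 34 windows of the 29 members that the table lists, the counts were 9, 21, 5 and 1. These are matches of letters and not shown to be bound.

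**Figure D2:**
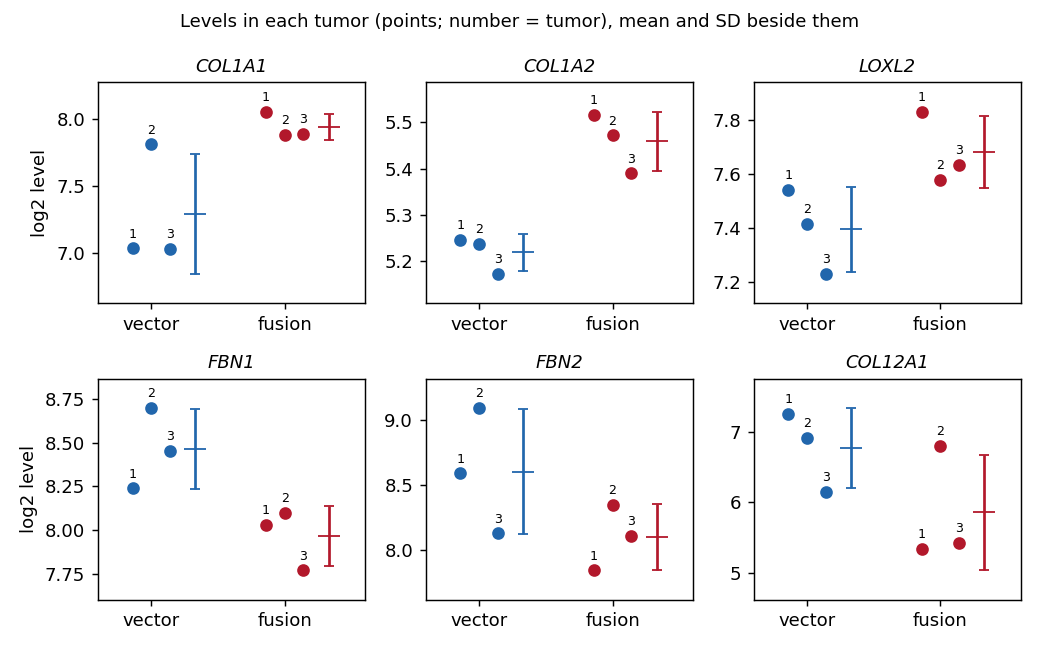
Log2 level (vertical axis) of the 6 members with an unadjusted p below 0.05, a log2 fold change of at least 0.5 in size or groups that did not overlap; points are tumors, numbered, with the group mean and SD to the right, in blue for vector and red for fusion. COL1A1, COL1A2, LOXL2 and FBN1 show separate groups, while fusion tumor 2 lies among the vector tumors for COL12A1 and vector tumor 3 among the fusion tumors for FBN2.

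Of the lysyl oxidases, LOXL2 alone had groups that did not overlap. LOXL2, which cross-links collagen and type IV collagen in particular, stood at 7.83, 7.58 and 7.64 in fusion tumors and at 7.54, 7.41 and 7.23 in vector tumors. The gap between the lowest fusion and the highest vector tumor was narrow. The means were 7.68 ± 0.13 and 7.40 ± 0.16 (SD, n = 3 each), a 1.22-fold difference, or 0.29 on the log2 scale with an SE of 0.12 (limma adjusted p = 0.788). With the mean of probe sets the log2 fold change of LOXL2 was 0.092. LOX, the founding enzyme of the family, had a log2 fold change of -0.0090 (95% confidence interval -0.22 to 0.21), from 6.38 to 6.60 over all tumors. LOXL4 was the narrowest, from 5.33 to 5.41. LOXL1, which acts on elastin, was 7.11 in fusion tumor 1 and between 6.41 and 6.82 in the others, and LOXL3 ran from 5.56 to 5.87.

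All 7 genes for hydroxylases and the chaperone were tested, and none had an unadjusted p below 0.05. Their log2 fold changes lay between -0.11 and 0.13, with a median of 0.00085. PLOD3, a lysyl hydroxylase that also adds sugars, was 10.52, 10.46 and 10.43 in fusion tumors and 10.46, 10.39 and 10.42 in vector tumors, and its interval was -0.14 to 0.24. PLOD1 had an interval of -0.24 to 0.24, and P4HA1, a catalytic subunit of prolyl 4-hydroxylase, of -0.29 to 0.32. PLOD2, whose product marks lysines for a stable type of cross-link, was 9.08 in vector tumor 1 and 9.47 to 9.65 in the others. P4HA2 was 9.53 to 9.59 in fusion tumors and 9.47, 9.77 and 9.76 in vector tumors. P4HA3 spread most, from 6.27 to 7.20, with both of these values in vector tumors, and its interval of -0.56 to 0.53 was the widest of the 7. SERPINH1 ran from 10.33 to 10.75 in fusion and 10.45 to 10.76 in vector tumors.

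**Figure D3:**
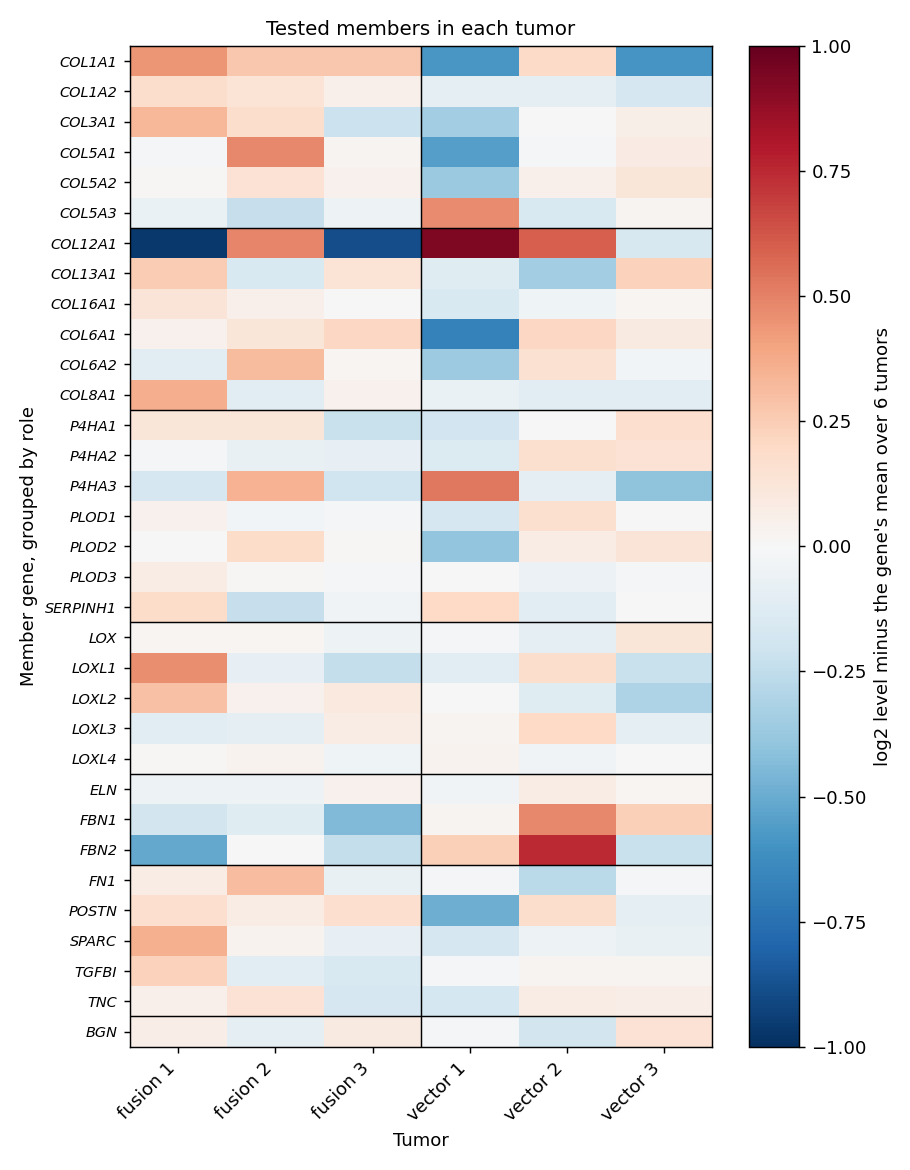
Log2 level of each tested member in each tumor minus the gene's mean over the 6 tumors (colour), with members grouped by role from the fibrillar collagens at the top to BGN at the bottom. LOXL4, ELN and PLOD3 are nearly uniform, vector tumor 1 is low for COL6A1, COL5A2 and PLOD2, and COL12A1 has the strongest contrast between tumors.

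The tested adhesive and matricellular glycoproteins overlapped between the groups on the probe sets used. FN1 encodes fibronectin, a ligand of integrins, and was 6.42, 6.65 and 6.27 in fusion tumors and 6.33, 6.08 and 6.33 in vector tumors (log2 fold change 0.20, 95% confidence interval -0.09 to 0.49). SPARC, which binds collagen, was 7.94 in fusion tumor 1 and from 7.41 to 7.62 in all others. On a second bright SPARC set, with a difference of 0.22, the groups did not overlap, and the other bright set differed by -0.16. POSTN, periostin, was 5.35, 5.26 and 5.35 in fusion tumors and 4.70, 5.37 and 5.09 in vector tumors. Vector tumor 2 lay level with the fusion tumors for POSTN, as it lay close to them for COL1A1. TNC and TGFBI had log2 fold changes of 0.022 and -0.028. The thrombospondin genes THBS1 and THBS2 were too dim to test, at means of 4.68 and 4.09; THBS2 was 3.87, 3.83 and 4.11 in fusion and 4.27, 4.14 and 4.34 in vector tumors, below the level at which a difference was read.

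Proteoglycans were mostly dim. DCN and LUM, small leucine-rich proteoglycans that coat collagen fibrils and are strongly made by fibroblasts, ran from 4.25 to 4.55 and from 2.96 to 3.41 over all tumors. VCAN, the large hyaluronan-binding versican, ran from 3.98 to 4.49. These 3 genes had no probe set at the level for testing. BGN, a close relative of DCN, was the tested proteoglycan, at 7.87, 7.72 and 7.90 in fusion tumors and 7.78, 7.62 and 7.95 in vector tumors (log2 fold change 0.042, 95% confidence interval -0.21 to 0.30).

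The 41 members had 166 probe sets, of which 77 reached the level for testing. Among 20 members with at least 2 such sets, the differences of all sets had the same sign in 11 and mixed signs in 9. The differences were negative on all FBN1 and FBN2 probe sets. The other bright FBN1 set differed by -0.74, and the other bright FBN2 sets by -0.57 and -0.16. COL1A1 rested on a single set: the other bright sets differed by 0.15 and 0.085, against 0.65 for the set used. COL12A1 had a second bright set at -0.11, against -0.91 for the set used. On that second set the groups did not overlap, by a narrow margin, at 5.08 to 5.16 in fusion and 5.17 to 5.31 in vector tumors. The second bright LOXL2 set differed by 0.22, with vector tumor 1 at 4.71 and the other tumors at 5.29 to 5.94.

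**Figure D4:**
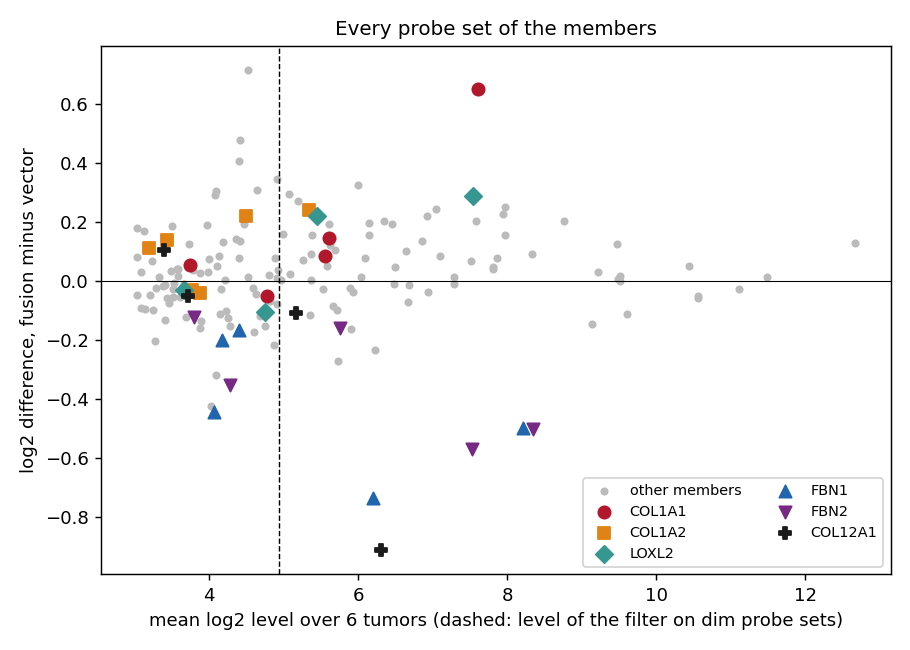
Difference between fusion and vector means (log2, vertical axis) against the mean log2 level over 6 tumors (horizontal axis) for all 166 probe sets of the members; coloured symbols mark the 6 members of the levels plot, and the dashed line is the level for testing, 4.94. All FBN1 and FBN2 sets lie below 0, while COL1A1 and COL12A1 each have a single set far from 0.

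Single tumors moved these differences. Vector tumor 1 was the lowest of the 6 tumors for 12 of 33 members (36.4%, against 28.8% of all tested genes) and the highest for 4 (12.1%, against 27.2%). Fusion tumor 1 was the highest for 11 (33.3%, against 18.5%). Without vector tumor 1, the median log2 fold change of the members was 0.020 and 5 members had an unadjusted p below 0.05, 3 higher and 2 lower. In that run 1259 of all 13694 genes had one. Without fusion tumor 1 there were 2 such members, and 669 of all genes. No member passed the adjusted threshold whichever tumor was left out. The sign of the difference stayed the same under all 16 alternatives for 16 members, among them all 6 in the plot of levels, wherever these were tested.

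**Figure D5:**
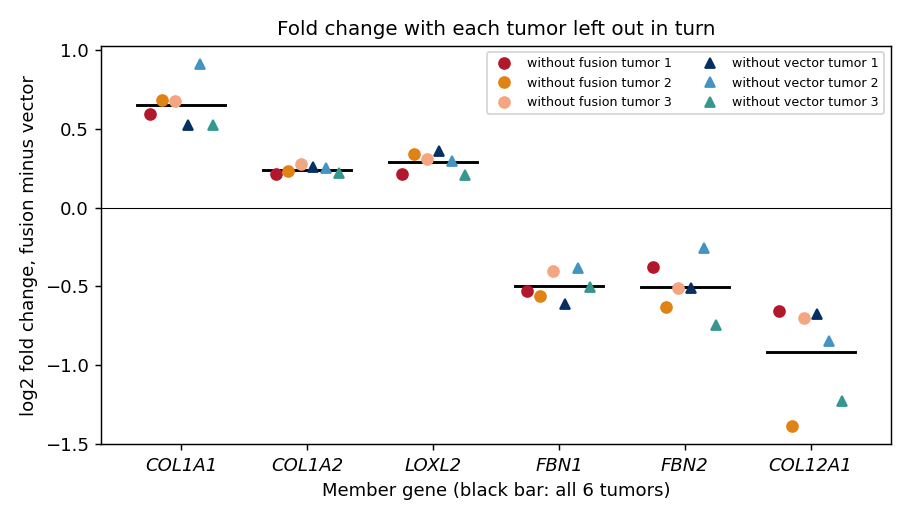
Log2 fold change (fusion minus vector, vertical axis) of the same 6 members with all tumors (black bars) and with each tumor left out in turn (circles for a fusion tumor, triangles for a vector tumor). No point crosses 0; COL12A1 ranges from -1.39 to -0.66 and COL1A1 from 0.52 to 0.91.

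Other genes of collagen and matrix assembly were followed in lists drawn up by their roles. By limma, none of the genes in the 4 lists that follow passed the adjusted threshold. Of 24 genes for collagen folding, export and procollagen processing, 19 were tested, and 2 were higher and 1 lower at an unadjusted p below 0.05. At that unadjusted p 3.16% of all genes were higher and 2.73% lower, the background for the next lists too. P3H2, a prolyl 3-hydroxylase, was 11.63, 11.58 and 11.65 in fusion tumors and 11.36, 10.99 and 11.02 in vector tumors (difference 0.49 with an SE of 0.12, limma adjusted p = 0.376). Every fusion tumor lay above every vector tumor for P3H2 and for its relative P3H3 (0.29). In this list the groups did not overlap for 3 genes with higher and 1 with lower values in fusion tumors. Over all genes the shares were 5.94% and 5.74%. The enhancers of procollagen cleavage PCOLCE and PCOLCE2 had log2 fold changes of 0.43 and -0.33. Of 21 genes for elastic fibre proteins and small leucine-rich proteoglycans, 14 were tested, with 0 higher and 1 lower. That gene was LTBP1, which binds latent TGF-beta to fibrillin microfibrils, at 5.87, 6.69 and 6.25 in fusion tumors and 7.70, 6.91 and 6.72 in vector tumors (difference -0.84 with an SE of 0.28, limma adjusted p = 0.658). The groups of LTBP1 and of PRELP did not overlap, 2 of the 14 tested, each with lower values in fusion tumors, where 5.74% of all genes were. PRELP, FMOD and LTBP2 were at -0.22, 0.19 and -0.12. Of 19 other collagens 9 were tested and 0 had an unadjusted p below 0.05, with COL18A1 at 0.18, COL11A2 at -0.15, COL26A1 at -0.27 and COL27A1 at 0.23. Among these 9 only COL11A2 had groups that did not overlap, with lower values in fusion tumors, as for 5.74% of all genes. Of 23 other matricellular and cartilage proteins 13 were tested, 0 higher and 1 lower (MATN2, -0.34), with SPARCL1 at 0.17, SPP1 at -0.15 and CCN2 at -0.44.

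Of 10 fibroblast markers that are not matrix proteins, 7 were tested, with a median log2 fold change of 0.019. The groups of 3 did not overlap, each with higher values in fusion tumors, as for 5.94% of all genes. These were FAP, S100A4 and THY1, with log2 fold changes of 0.91, 0.88 and 0.36. They did not pass (limma adjusted p = 0.202, 0.489 and 0.641). PDGFRA, ACTA2, PDPN and PDGFRB overlapped, with log2 fold changes of -0.15, -0.13, -0.11 and 0.019, and DPT, MEOX2 and TCF21 lay below the level for testing. Over all 6 tumors PDGFRA ran from 12.76 to 13.41 and THY1 from 10.36 to 11.03. Whether the human tumor cells or the fibroblasts of the mouse host gave the values of this list was not tested. The mean level of the list was 6.82 to 6.98 in fusion and 6.73 to 6.75 in vector tumors. Adipocyte markers had list means of 5.50 to 5.54 and 5.68 to 5.78. Log2 fold changes were -0.33 for PLIN1, -0.26 for CIDEC and -0.091 for ADIPOQ. The groups overlapped for PLIN1 and ADIPOQ. They did not for CIDEC, with lower values in fusion tumors, as for 5.74% of all genes. LEP and FABP4 lay below the level for testing. Leukocyte markers had means of 5.54 to 5.57 and 5.44 to 5.49. Of the 4 tested, CD68 stood at 0.80 on the log2 fold change scale (adjusted p = 0.112 by limma), CSF1R at 0.17, ITGAM at 0.020 and TYROBP at -0.13. The groups did not overlap for CD68, CSF1R and TYROBP, as for 11.7% of all genes. PTPRC, CD14 and CD163 lay below the level for testing. The means of the pericyte and smooth muscle list overlapped, at 6.56 to 6.64 and 6.41 to 6.74. Those of the endothelial list did too, at 5.38 to 5.43 and 5.33 to 5.49. Of single genes, MYH11 (log2 fold change 0.13), 1 of 5 tested in the former list, had groups that did not overlap. In the endothelial list 0 of 4 tested did. The part of these cells in the values of the members was not tested.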

How the data were processed

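RNA of 6 tumors, 3 per group, was labelled with biotin and hybridised by Affymetrix standard procedures, per the labels' protocols. The authors deposited log2 values, 1 per probe set and array; the table names no unit and its values fit a log2 scale, while their normalization and summarisation steps are, for this work, not given in the sources used. With 3 per group, the number of arrays limits the precision. Of 49293 probe sets, 44988 named 1 gene, 1832 several and 2473 none here, by the platform annotation; 44961 had their gene ID in RefSeq (GRCh38.p14), with 0 symbols changed. After the filter at the 30th percentile (which left out 4438 genes), the groups were set against each other by a two-sided limma test (version 3.58.1, R 4.3.3; lmFit, then eBayes without trend), and p-values for 13694 genes were adjusted by Benjamini-Hochberg. The p-values set the difference between groups against the spread between tumors of a group, which limma moderates over all genes. They do not measure how separate transfections would vary. The replicate number was no term of the model.

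The fit was tested on simulated data. Alternatives covered the filter, the choice of probe set, scaling, the variance model, array weights, the replicate block, the threshold and each tumor left out. Members and lists were chosen with earlier results of these data known. Statistics were given to members with an unadjusted p below 0.05, a log2 fold change of at least 0.5 in size or groups that did not overlap, and up to 4 genes by p were named from each further list.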

Additional observations from a re-analysis of the deposited data

How the results depend on the processing

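Precision is limited by having 3 arrays in each group, and 8 members had dim probe sets and were not tested. The count of all genes passing, 10 with the main setting, was 1 with the filter at the 50th percentile, 16 with the mean of probe sets, 6 with the most variable set, 5 with plain _at sets and 140 with array weights, and ranged from 0 to 37 with a tumor left out: fusion tumor 1 left out gave 0, vector tumor 1 left out gave 37 and any other gave 3. At 0 calls, 669 genes had an unadjusted limma p below 0.05. Members passing were 0 except with array weights, where 1 (FBN1) passed. Members at an unadjusted p below 0.05, 4 with the main setting, were 2 with the mean of probe sets and 0 with plain _at sets, and 2 to 6 with a tumor left out. Over all genes the main setting gave 807 of 13694 and the mean of probe sets 772 of 12563. Plain _at sets gave 272 of 4802, and runs with a tumor left out gave 538 to 1259 of 13694. The median log2 fold change of the members, 0.049, was -0.035 with plain _at sets, where 8 members were tested, and 0.020 to 0.13 with a tumor left out. For the shifts the cause was not tested. The replicate block left 8 genes and 0 members passing. It put 6 members and 910 of all genes at an unadjusted p below 0.05, with the same member median of 0.049. Same-numbered tumors deviated from their group means with correlations of 0.097, 0.17 and 0.051, each the highest for both tumors. The deviations of the 3 tumors of a group sum to 0, so the correlations depend on each other. They cannot show whether tumors were paired, and the labels state no pairing. With a threshold of adjusted p 0.1, 13 genes and 0 members passed. Of the 33 tested members, 17 changed sign under at least 1 alternative, none of them among the 6 with full statistics.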
